A study of Mus musculus with 7 samples.

Results

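10 genes whose expression marks position along the liver sinusoid were followed in mouse liver endothelial cells with and without c-Maf, a transcription factor encoded by Maf. They were fixed by name: 5 pericentral markers (Kit, Kitl, Cdh13, Thbd and Lhx6) and 5 periportal markers (Adam23, Ntn4, Ltbp4, Dkk1 and Lgals1), 10 of 52636 genes in the deposited count table. All 10 had a row there, and 9 of the 10 passed the filter on low counts, Dkk1 being the exception. The samples were 3 control libraries and 4 libraries labelled c-Maf knockout (KO), all of polyadenylated RNA from endothelial cells sorted out of liver by flow cytometry. The labels give no strain, age, sex, driver or timing of the deletion, or part of the gene deleted, and do not say whether the controls carry any allele of their own. Nor do they say that libraries came from separate animals, so a p-value here reflects only how much these libraries vary, and part of that may be technical.

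Blood enters a liver lobule at the portal tracts, runs through the sinusoids and leaves at the central vein. Endothelial cells along this path differ in what they express: those near the central vein are known for Wnt ligands and R-spondin that set the metabolic zones of neighbouring hepatocytes, while those near the portal tract share genes with arterial endothelium. The zone of a cell cannot be read from these bulk data, in which the cells of all zones were sorted and sequenced together. Fewer cells of a zone and less RNA per cell cannot be told apart here.

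Total counts ran from 24772716 to 32960007 per library. By the lane number in the labels, control 3 and KO 3 came from lane 4 and all others from lane 5. Maf stood at 1664 to 2147 CPM (read counts scaled to library size, with TMM factors) in controls and at 28.9, 159, 125 and 37.7 CPM in KO 1 to 4. The 13 sinusoidal endothelial markers summed to between 45680 and 50050 CPM in controls and between 12980 and 20300 CPM in the KO, where 10 of the 13 fell, and the 13 pan-endothelial markers to 27680 to 29850 and 15400 to 21160 CPM. Changes are given as the log2 ratio of KO over control. The words rose and fell mean an adjusted p under 0.05 in edgeR's quasi-likelihood test over all 15512 genes tested.

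Of the 9 markers tested, 6 fell (Kit, Cdh13, Thbd, Adam23, Ntn4 and Lgals1), 1 rose (Lhx6) and 2 did not pass (Kitl and Ltbp4). Changes were common in this comparison, with 45.2% of all genes tested past the threshold, 22.2% falling and 23% rising, so a change in a given marker is not in itself unusual. Scaling set the balance: TMM made 50.81% of the calls rises, library totals made it 76.33% (median log2 ratio of all genes 0.31), and upper-quartile scaling 63.43% (median 0.17). The size of the falls stood further from the background: 4 of the 9 (Kit, Cdh13, Adam23 and Ntn4) fell at least 2-fold, as did 5.95% of all genes, and 3 (Kit, Cdh13 and Adam23) fell at least 3-fold, as did 2.44%. Control and KO values did not overlap in 6 of the 9, beside 50.3% of all genes, so that share was near the background. The median log2 ratio of the 9 was -0.84, beside 0.04 for all genes tested. The markers were chosen with earlier results of these data known, so these shares and medians are description only. Of the markers tested, 3 of 5 pericentral and 3 of 4 periportal genes fell.

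**Figure D1:**
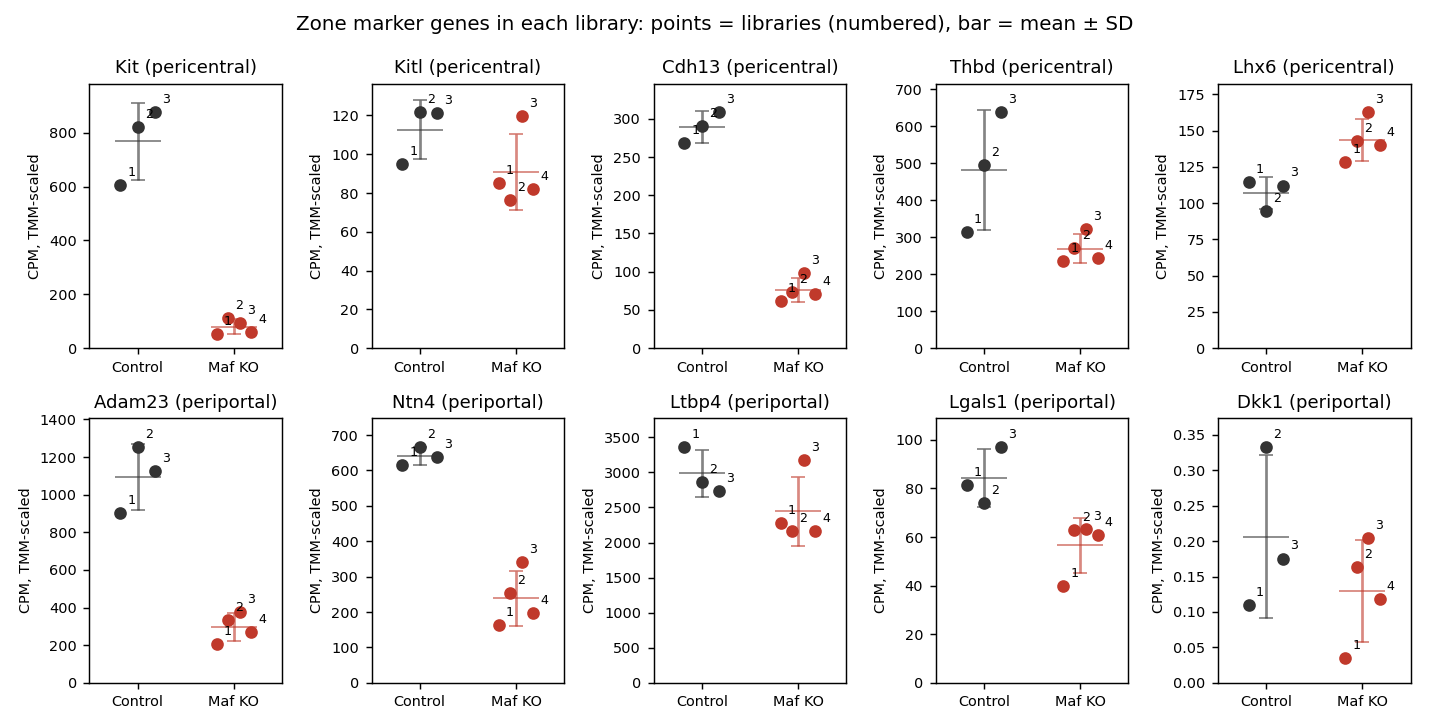
TMM-scaled CPM of the 10 zone markers (vertical axes, each from 0) in 3 control libraries (black) and 4 KO libraries (red), numbered by replicate, with mean and SD. Kit, Cdh13, Adam23 and Ntn4 separate widely, Lhx6 is higher in every KO library, and KO 3 is the only KO library that reaches the controls in Kitl, Thbd and Ltbp4.

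Kit encodes the receptor tyrosine kinase for stem cell factor and marks pericentral sinusoidal cells. The gene lies on the plus strand of chromosome 5 (75574916 to 75656722, GRCm38, protein-coding, ENSMUSG00000005672). Controls 1 to 3 held 604, 821 and 877 CPM, and KO 1 to 4 held 54.2, 113, 94.3 and 59.2 CPM. The highest KO library thus stayed far below the lowest control, and each KO library kept between 7.06% and 14.7% of the control mean. Kit was 9.58-fold lower in the KO (767 ± 144 CPM, SD, n = 3, against 80.1 ± 28.2, n = 4; log2 ratio -3.26, SE 0.271, adjusted p = 3.76e-05). Only 0.245% of all genes tested ranked as low or lower by log2 ratio.

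Mast cells and blood progenitors are known to express Kit as well. The 10 markers of mast cells, basophils and myeloid progenitors, among them Cpa3, Tpsb2 and Mpo, summed to between 0.218 and 0.458 CPM in controls and between 0.142 and 0.326 CPM in the KO, and Ms4a2, Fcer1a, Mcpt4 and Elane had 0 counts in all 7 libraries.

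The gene of the Kit ligand did not pass the test. Kitl, on the plus strand of chromosome 10 (100015630 to 100100416), encodes stem cell factor, whose membrane-bound and soluble forms are not separated by gene counts. Its level was 95.1, 122 and 121 CPM in controls 1 to 3, and 85.4, 76.4, 120 and 81.9 CPM in KO 1 to 4. KO 3 lay among the controls and the other 3 KO libraries below all of them. The difference did not pass (log2 ratio -0.31, SE 0.163, adjusted p = 0.147), and with library totals in place of TMM it was -0.05 (adjusted p = 0.802). It passed without KO 3 (-0.49, adjusted p = 0.00654) and in lane 5 alone (-0.46, adjusted p = 0.0203).

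The number of Kit reads for each Kitl read does not depend on how libraries are scaled. It was 6.35, 6.74 and 7.23 in controls and 0.634, 1.48, 0.787 and 0.723 in KO 1 to 4. Kit reads outnumbered Kitl reads in all controls, and among KO libraries only in KO 2.

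Genes listed as partners or regulators of Kit fell more often than they rose. Of 26 tested, 11 fell, 1 rose and 14 did not pass, where 22.2% of all genes tested fell and 23% rose. The list is not confined to signalling inside the cell, as it holds the protease genes Adam17, which fell (-0.48), and Mmp9, which did not pass. Pik3r1, the regulatory subunit of phosphoinositide 3-kinase that binds the activated receptor, fell from 114 ± 12.7 to 47.5 ± 5.90 CPM (log2 ratio -1.27, SE 0.118, adjusted p = 6.46e-05). Stat5b, a transcription factor activated downstream of Kit, had a log2 ratio of -0.92 (adjusted p = 0.000451). The adaptor genes Sh2b3, which restrains cytokine and Kit signals, and Grb10 had -0.96 and -0.77. Socs1, a feedback inhibitor of cytokine signals, was the gene that rose, from 58.8 ± 13.8 to 112 ± 28.2 CPM (0.92, adjusted p = 0.00743). The haemato-endothelial factors Tal1, Lmo2 and Gata2 did not pass, at adjusted p values of 0.213, 0.106 and 0.659. With library totals 6 of the 26 fell and 5 rose, and 2 rose under 7 other settings and without control 3 or KO 2.

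Cdh13 encodes T-cadherin, a cadherin anchored by a lipid tail that binds adiponectin. The gene lies on the plus strand of chromosome 8, 118283733 to 119324921 (ENSMUSG00000031841). Its controls were close together at 268, 290 and 309 CPM, and KO 1 to 4 held 61.3, 74.0, 98.1 and 71.2 CPM. The groups did not overlap, and the KO libraries kept 21.2% to 33.9% of the control mean (log2 ratio -1.92, SE 0.151, adjusted p = 3.08e-05). Of 10 genes listed as Cdh13 partners or relatives, 1 fell and 2 rose. The adiponectin receptor gene Adipor1 fell from 628 ± 44.3 to 270 ± 46.4 CPM (log2 ratio -1.22, adjusted p = 0.000226), whereas Adipor2 stood at 92.8 ± 7.18 and 83.4 ± 10.8 CPM and did not pass (adjusted p = 0.287). The risers were Pik3cb, from 8.68 to 16.5 CPM, and Ilk, from 0.874 to 1.74 CPM, and Ilk did not pass without control 1 (adjusted p = 0.0582) or control 3 (0.0673). Without KO 1, 2 fell and without KO 3, 3 fell.

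Thbd encodes thrombomodulin, the endothelial receptor that turns thrombin towards activating protein C. The gene is a single exon on the minus strand of chromosome 2 (148404466 to 148408188, ENSMUSG00000074743). Among tested markers it had the widest relative spread in controls, at 313, 494 and 638 CPM, and KO 1 to 4 held 237, 272, 322 and 245 CPM. KO 3 lay above control 1, so the groups overlapped although the difference passed (log2 ratio -0.84, SE 0.218, adjusted p = 0.0125). Adjusted p reached 0.0489 without control 3, the highest control, where the log2 ratio was -0.59.

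Other genes listed with Thbd went both ways. The list holds genes of the protein C, thrombin and fibrinolytic systems, and also Klf and Mef2 transcription factors and Nos3. Of 14 tested, 5 rose, 3 fell and 6 did not pass. Tfpi, the tissue factor pathway inhibitor, fell from 686 ± 40.0 to 199 ± 19.8 CPM (log2 ratio -1.78, SE 0.112, adjusted p = 1.09e-05) and Pros1, the protein S cofactor, from 802 ± 46.9 to 290 ± 87.6 CPM. Procr, the endothelial protein C receptor that presents protein C to the thrombin-thrombomodulin complex, rose from 6.31 ± 1.51 to 17.6 ± 0.169 CPM (1.48, adjusted p = 0.000117), and Plat, tissue plasminogen activator, from 1.42 ± 0.869 to 7.31 ± 2.37 CPM (2.38, and 2.98 without control 3). Klf2 and Klf4, shear-responsive factors known to induce Thbd, rose, as did Nos3, with log2 ratios of 0.83, 0.59 and 0.50, and Mef2a fell (-0.54). Klf4 did not pass without control 1, control 3 or KO 2 (adjusted p = 0.0762, 0.0665 and 0.0535), and Mef2a not without control 2 (0.0658) or with library totals (0.0770). The 14 immediate-early and heat shock genes that respond to cell dissociation summed to 8154 to 10550 CPM in controls. They summed to 24620, 19390, 11960 and 14530 CPM in KO 1 to 4, where 6 of 14 rose. Their part in the values of Thbd, Klf2 and Klf4 was not tested.

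Lhx6, a LIM homeobox transcription factor gene, was the marker that rose. It lies on the minus strand of chromosome 2 (36081953 to 36105408, ENSMUSG00000026890), and 2.16% of its exon bases are shared with a small annotated RNA on the same strand. Controls 1 to 3 held 115, 94.5 and 112 CPM and KO 1 to 4 held 128, 143, 163 and 140 CPM. Every KO library lay above every control, by a modest 1.34-fold on average (log2 ratio 0.42, SE 0.1097, adjusted p = 0.0129). Without control 2, the lowest control, it did not pass (0.33, adjusted p = 0.0740). For each Lhx6 read there were 5.27, 8.69 and 7.83 Kit reads in controls and 0.423 to 0.792 in KO libraries, so these 2 pericentral markers exchanged their order in read number. Of 7 LIM cofactors and relatives tested, Ldb2 rose (0.34, adjusted p = 0.0370) and Lhx2 fell at a very low level (0.881 to 0.415 CPM, -1.09, adjusted p = 0.0165). Ldb2 did not pass without control 2 or 3 or KO 2, 3 or 4 (adjusted p = 0.0641 to 0.151), or in lane 5 alone (0.269). Lhx2 did not pass without control 1 (0.0659). With the replicate number as a block neither passed (0.16 for Ldb2 and 0.068 for Lhx2). Lhx2 is also 1 of 10 hepatic stellate cell markers, which summed to 25.8 to 57.98 CPM in controls and 11.8 to 12.9 CPM in the KO, where 7 of 9 tested fell, and their part in its value was not tested. The LIM count of falls was 2 without KO 3. The cofactor gene Ldb1 did not pass (331 ± 12.7 and 368 ± 33.7 CPM, adjusted p = 0.256).

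Adam23 headed the periportal markers. It encodes a disintegrin-domain membrane protein without protease activity that takes part in cell adhesion, and lies on the plus strand of chromosome 1 (63445891 to 63596276, ENSMUSG00000025964). Controls 1 to 3 held 904, 1255 and 1125 CPM and KO 1 to 4 held 206, 333, 377 and 273 CPM. No KO library came near the lowest control, and KO libraries kept 18.8% to 34.4% of the control mean (log2 ratio -1.88, SE 0.208, adjusted p = 0.000155). Of its partners and relatives 3 rose and 1 fell among 6 tested. The integrin subunit gene Itgav fell from 31.8 ± 5.48 to 18.6 ± 2.17 CPM, while Adam11, Lgi4 and Prnp rose at low levels, to 1.33, 3.21 and 4.40 CPM in the KO. Prnp did not pass without control 1 or 2 or KO 1, 3 or 4 (adjusted p = 0.0566 to 0.124). With the replicate number as a block neither Lgi4 nor Prnp passed (0.0521 and 0.0642).

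Ntn4 encodes netrin 4, a secreted laminin-binding protein of vascular basement membrane, and lies on the plus strand of chromosome 10 (93640681 to 93747207, ENSMUSG00000020019). Its controls differed least of all 9 tested markers in relative terms, at 615, 667 and 639 CPM. KO 1 to 4 held 163, 253, 342 and 198 CPM, spread more widely than the controls and all below them (log2 ratio -1.42, SE 0.222, adjusted p = 0.000979). Among 8 tested netrins, netrin receptors and Ntn4-binding subunits, 5 fell and 1 rose. The fallers were Ntng2, a membrane-anchored netrin relative, from 228 ± 13.7 to 78.2 ± 1.20 CPM (log2 ratio -1.55, SE 0.0789, adjusted p = 5.83e-06), the receptor genes Unc5a, Unc5b and Neo1 (-0.88, -1.24 and -1.25), and the integrin subunit gene Itgb1 (-0.84). The integrin subunit gene Itga6 rose from 104 ± 18.4 to 306 ± 39.8 CPM (1.56, adjusted p = 9.07e-05). Ntn1 stood at 30.0 ± 6.99 and 23.7 ± 4.86 CPM and did not pass (adjusted p = 0.163).

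Ltbp4 encodes a latent TGF-beta binding protein of the extracellular matrix and lies on the minus strand of chromosome 7 (27305136 to 27337692, ENSMUSG00000040488). It had the most reads of all the markers, with 3366, 2862 and 2735 CPM in controls and 2274, 2168, 3174 and 2162 CPM in KO 1 to 4. KO 1, KO 2 and KO 4 lay close together below all controls, and KO 3 lay between control 1 and control 2. The difference did not pass (log2 ratio -0.29, SE 0.177, adjusted p = 0.208), was -0.03 with library totals (adjusted p = 0.891), and passed without KO 3 (-0.45, adjusted p = 0.0165) and in lane 5 alone (-0.55, adjusted p = 0.0180). Relative to Ltbp4 in the same library, Adam23 had 0.269 to 0.439 reads per Ltbp4 read in controls and 0.0907 to 0.154 in the KO, and Ntn4 0.183 to 0.234 and 0.0716 to 0.117, with no overlap in either.

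Of 14 other genes of the LTBP family and elastic fibres, 5 rose, 1 fell and 8 did not pass. The relatives Ltbp1 and Ltbp3 rose from control means of 3.11 ± 1.35 and 8.28 ± 2.22 CPM (log2 ratios 1.54 and 1.04, adjusted p = 0.00362 and 0.00568), far below Ltbp4 in read number. Fbn1, fibrillin 1, to which LTBP proteins bind, rose from 21.7 ± 7.63 to 109 ± 14.2 CPM, and Eln and Fbln2, elastin and fibulin 2, rose with log2 ratios of 1.46 and 0.82. Control 3 was the highest control for both, with 34.3 CPM of Eln against 9.14 and 7.74 in controls 1 and 2, and without it the log2 ratios were 2.46 and 1.27. Control 3 also held the most fibroblast and mesothelial marker RNA (181 CPM against 17.8 and 36.0), whose part in these values was not tested. Tgfb1, the growth factor, fell from 554 ± 89.6 to 299 ± 45.5 CPM (-0.89, adjusted p = 0.00172). Rises numbered 3 without control 1, control 2, KO 3 or KO 4, where neither Eln nor Fbln2 passed (adjusted p = 0.0710 to 0.126), and 2 genes fell without KO 3. Eln did not pass without KO 1 either (0.0563), nor Fbln2 without KO 2.

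Lgals1 encodes galectin 1, a secreted lectin that binds beta-galactosides, and lies on the plus strand of chromosome 15 (78926725 to 78930465, ENSMUSG00000068220). Controls 1 to 3 held 81.4, 73.9 and 97.2 CPM and KO 1 to 4 held 39.8, 63.0, 63.1 and 60.8 CPM. The groups did not overlap, and KO 1 stood well below the other 3 KO libraries, which lay close together (log2 ratio -0.57, SE 0.166, adjusted p = 0.0207). It did not pass without control 3 (-0.46, adjusted p = 0.0795) or with library totals (-0.31, adjusted p = 0.141). Control 3, the highest for Lgals1 and Thbd, was the control high in the 10 fibroblast and mesothelial markers, which summed to 34.8 to 78.8 CPM in the KO, where 1 of 10 rose and 1 fell. Their part in either gene's value was not tested. Of 6 other galectin and galectin-binding genes tested, 2 fell and 0 rose. Lgals8 fell (121 ± 2.88 to 87.2 ± 6.88 CPM), as did the galectin-binding protein gene Lgals3bp (780 ± 48.0 to 559 ± 95.4 CPM), and the abundant Lgals9 did not pass (adjusted p = 0.162). Lgals3bp did not pass without control 1 or 2 or KO 2 or 4 (adjusted p = 0.0532 to 0.0971). Nor did it pass with library totals (-0.22, adjusted p = 0.204), upper-quartile scaling (0.0557) or the replicate number as a block (0.0717).

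Dkk1, a secreted antagonist of Wnt signalling on the minus strand of chromosome 19 (30545863 to 30549665), was almost undetected. It had 3, 8 and 4 reads in controls 1 to 3 and 1, 5, 7 and 4 in KO 1 to 4, too few for the filter. The 15 control and 17 KO reads gave a KO to control ratio of 0.662 with a 95% exact interval of 0.311 to 1.42, which covers counting error only, so no difference was detectable at this depth. Of 8 relatives and co-receptors listed, 5 passed the filter, and Dkk2, Dkk4 and Dkkl1 did not. Dkk2 had 0, 0 and 1 reads in controls 1 to 3 and 9, 2, 7 and 5 in KO 1 to 4. Of 5 tested, 4 fell and 1 rose: Dkk3, a distant Dickkopf relative, from 65.8 ± 18.5 to 5.23 ± 4.83 CPM (log2 ratio -3.64, SE 0.690, adjusted p = 0.00271), the Wnt co-receptor genes Lrp5 and Lrp6 (-0.996 and -1.17) and the Dickkopf receptor gene Kremen1 (-0.94), while Kremen2 rose from 0.726 to 1.70 CPM (1.23, adjusted p = 0.00263).

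Promoter sequence is shown for the steepest pericentral fall (Kit), the steepest periportal fall (Adam23) and the rise (Lhx6), so that they can be compared for the letters that Maf proteins bind. Bases before the annotated gene are printed 5′ to 3′, from RefSeq on GRCm38.p6, at chr5:75574737-75574915 (plus strand), chr1:63445641-63445890 (plus strand) and chr2:36105409-36105658 (minus strand). Capitals mark the Maf half-site TGCTGA or its reverse complement TCAGCA, and the AP-1 site TGAGTCA or its reverse complement TGACTCA.
Kit: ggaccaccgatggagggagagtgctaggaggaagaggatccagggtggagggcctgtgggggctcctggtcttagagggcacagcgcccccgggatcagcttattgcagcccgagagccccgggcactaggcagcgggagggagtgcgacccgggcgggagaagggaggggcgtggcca
Adam23: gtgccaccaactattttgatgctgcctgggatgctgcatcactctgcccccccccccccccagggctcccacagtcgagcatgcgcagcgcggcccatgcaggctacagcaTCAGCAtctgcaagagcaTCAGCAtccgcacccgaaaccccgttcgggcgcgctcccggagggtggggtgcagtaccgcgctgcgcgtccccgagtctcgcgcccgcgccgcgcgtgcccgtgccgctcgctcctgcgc
Lhx6: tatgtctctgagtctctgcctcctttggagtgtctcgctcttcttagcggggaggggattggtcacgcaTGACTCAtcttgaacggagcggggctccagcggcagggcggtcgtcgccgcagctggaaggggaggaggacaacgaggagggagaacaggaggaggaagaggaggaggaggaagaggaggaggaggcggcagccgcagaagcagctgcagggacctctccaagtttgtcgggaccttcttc
Adam23 held the half-site letters at 2 places, starting 139 and 121 bases before the start, both as TCAGCA. Lhx6 held 1 AP-1 match, 181 bases before its start, and Kit held neither. Of 32851 mouse promoter windows of 250 bases, 16.1% held the half-site and 4.46% the AP-1 site on either strand. The search covered 12 windows of 7 markers (Kit, Kitl, Lhx6, Adam23, Ntn4, Ltbp4 and Dkk1), and these 2 genes held the only matches. The GATA letters AGATAA, found in 9.99% of all windows, and the TCF/LEF letters CTTTGAT, found in 3.21%, had no match in the 12. A match describes these letters alone and is not a measured binding site. Cdh13, Thbd and Lgals1 were not searched.

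**Figure D2:**
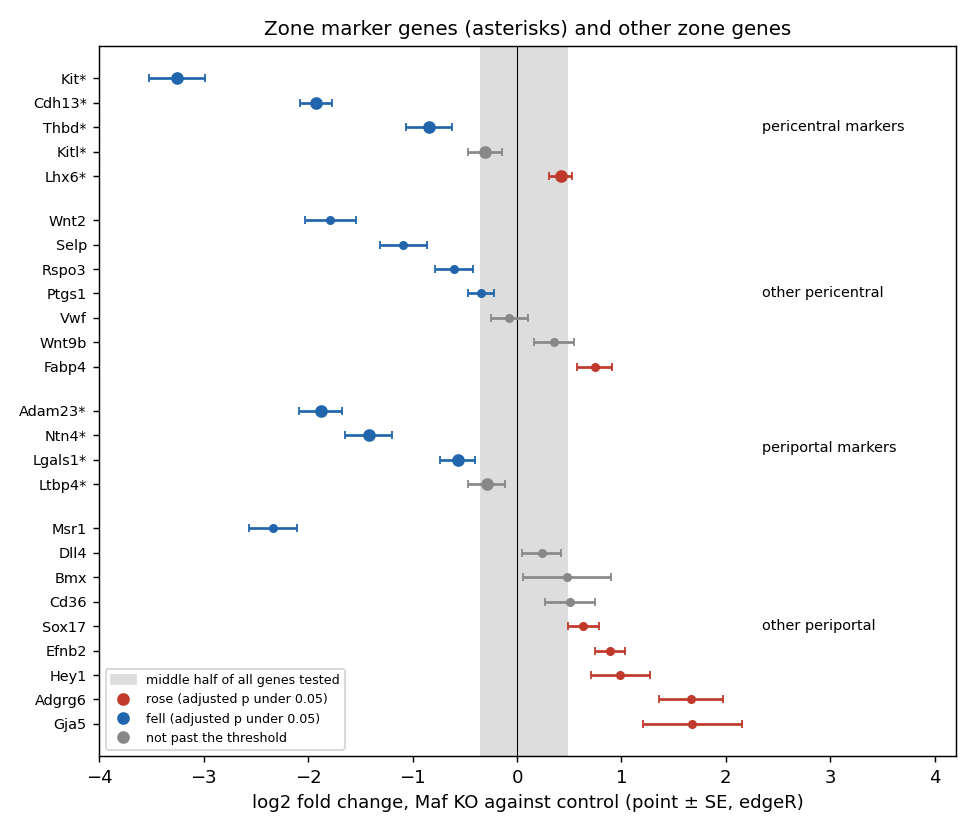
Log2 ratio of KO against control (horizontal axis, point ± SE) for the tested zone markers (asterisks) and for other genes listed as pericentral or periportal, blue where they fell, red where they rose and grey where they did not pass, over the span between the quartiles of all genes tested (grey band). Kit at -3.26 is lowest, Msr1 fell among the other periportal genes, and 5 other periportal or portal genes rose.

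Other endothelial genes known for a zone were set beside the markers. Of 7 pericentral and central vein genes, 4 fell and 1 rose. Wnt2, the Wnt ligand of pericentral sinusoids, fell from 339 ± 59.1 to 98.2 ± 32.1 CPM (log2 ratio -1.79, SE 0.242, adjusted p = 0.000469), Selp, P-selectin, fell from 40.4 ± 11.8 to 19.0 ± 4.73 CPM, and the R-spondin gene Rspo3 from 90.7 ± 25.5 to 59.6 ± 8.20 CPM. Ptgs1, cyclooxygenase 1, fell least (-0.35, adjusted p = 0.0476), and Fabp4, a fatty acid binding protein, rose from 353 ± 45.6 to 590 ± 112 CPM. The ligand gene Wnt9b stood at 145 ± 38.9 and 185 ± 33.9 CPM and Vwf, von Willebrand factor, at 244 ± 42.6 and 232 ± 46.7 CPM, and neither passed (adjusted p = 0.167 and 0.751). Rspo3 did not pass without control 3 (adjusted p = 0.0805) or with library totals (0.143). Ptgs1 did not pass without any single library other than KO 3 (0.0560 to 0.191), nor with library totals (0.553). Without control 3, 2 genes of the list fell and 2 rose.

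Other periportal and portal genes rose more often than they fell. Of 9, 5 rose, 1 fell and 3 did not pass, where 23% of all genes tested rose and 22.2% fell. The genes that rose are known from arterial and portal vessels: the ephrin gene Efnb2 (154 ± 22.6 to 286 ± 40.5 CPM, log2 ratio 0.89, SE 0.144, adjusted p = 0.00118), the transcription factor gene Sox17 (209 ± 19.0 to 324 ± 56.9 CPM), the adhesion receptor gene Adgrg6 (9.57 ± 2.55 to 30.3 ± 10.8 CPM), the connexin gene Gja5 and the Notch target Hey1. Msr1, a scavenger receptor of periportal sinusoids, fell from 398 ± 13.3 to 78.8 ± 27.6 CPM (-2.33, SE 0.231, adjusted p = 8.83e-05). The Notch ligand gene Dll4 (168 ± 51.5 and 198 ± 15.8 CPM) and the fatty acid transporter gene Cd36 (949 ± 80.3 and 1348 ± 453 CPM) did not pass, nor did the kinase gene Bmx, at about 1 CPM. Without control 1, 3 rose, Gja5 and Hey1 being lost (adjusted p = 0.0630 and 0.0505). Gja5 did not pass without control 2 (0.0735) or KO 4 (0.0509) either, nor Hey1 without control 3 (0.0658). The difference between these genes and the periportal markers was not tested.

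**Figure D3:**
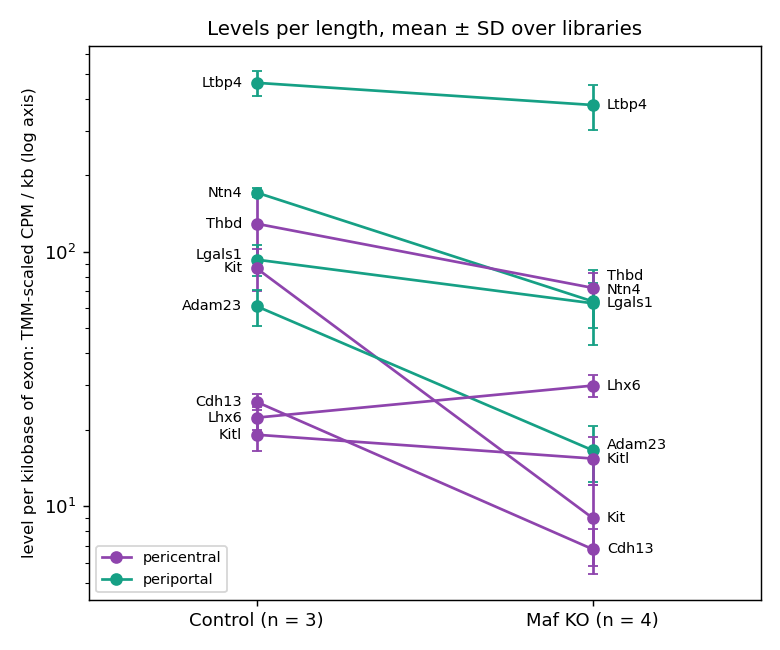
Level per kilobase of exon (TMM-scaled CPM divided by kilobases of merged exon, log axis) of the 9 tested markers in controls (left) and KO (right), mean and SD over libraries, joined by gene. Ltbp4 stays on top at 462 and 378, while Kit drops from 86.1 to 8.99 and Cdh13 from 25.7 to 6.78.

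Levels between genes were compared per kilobase of merged exon, which understates genes with long alternative exons. In controls the level per kilobase was highest for Ltbp4 at 462 ± 51.7, followed by Ntn4 at 171 ± 6.97, Thbd at 129 ± 43.7, Lgals1 at 93.2 ± 13.1, Kit at 86.1 ± 16.2 and Adam23 at 61.1 ± 9.90. Each of the neighbours from Ntn4 down to Adam23 overlapped in range over the 3 libraries. Below a gap came Cdh13, Lhx6 and Kitl at 25.7 ± 1.82, 22.3 ± 2.28 and 19.1 ± 2.58, and Dkk1 at 0.0848 ± 0.0474. In the KO the order was Ltbp4 (378 ± 75.7), Thbd, Ntn4 and Lgals1 (72.2 ± 10.3, 63.9 ± 20.8 and 62.8 ± 12.5, overlapping), Lhx6 (29.8 ± 3.00), Adam23 and Kitl (16.6 ± 4.14 and 15.4 ± 3.33, overlapping), then Kit and Cdh13 (8.99 ± 3.16 and 6.78 ± 1.39, overlapping). Lhx6 went from place 8 to place 5 and Kit from place 5 to place 8.

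**Figure D4:**
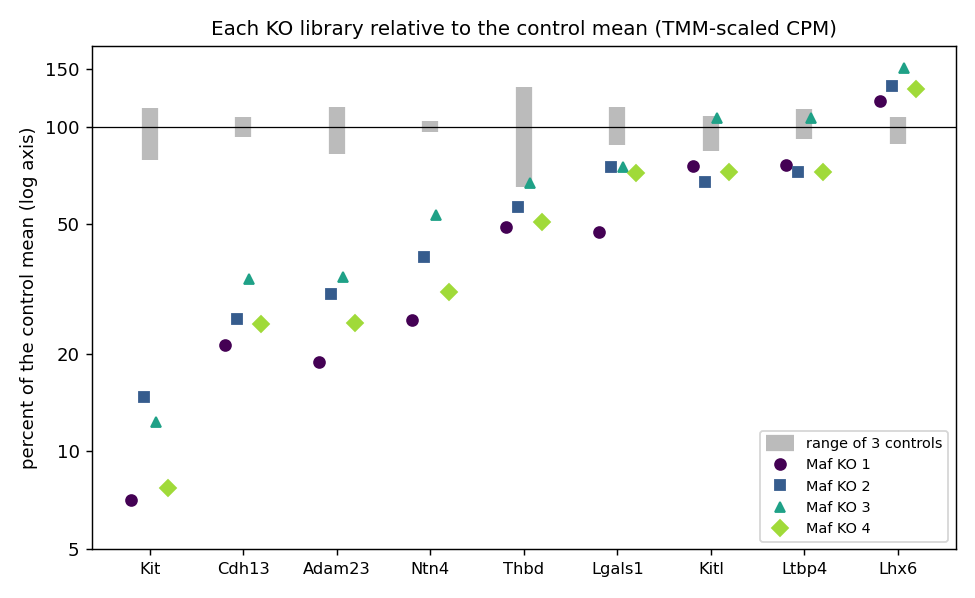
TMM-scaled CPM of each KO library as a percent of the control mean (log axis) for the 9 tested markers, with the range of the 3 controls as grey bars. KO 1 (dark circles) is lowest for 7 markers and KO 3 (triangles) highest for 8.

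The 4 KO libraries were ordered alike in most markers. KO 3 was the highest of the 4 in 8 of 9 markers, all but Kit, and KO 1 the lowest in 7 of 9, all but Kitl and Ltbp4. Of all genes tested, 31.2% were highest in KO 3 and 28.7% lowest in KO 1. The summed sinusoidal markers had KO 3 highest and KO 1 lowest as well (12980, 17540, 20300 and 13970 CPM in KO 1 to 4). The 12 hepatocyte markers were highest in KO 1, summing to 1629 CPM in KO 1, 370 in KO 2, 434 in KO 3 and 735 in KO 4, all above the controls (292.1 to 333.3 CPM), and 7 of 12 rose. Remaining Maf was highest in KO 2 and KO 3, which were also the higher 2 KO libraries for Kit, Cdh13, Thbd, Adam23, Ntn4, Lhx6 and Lgals1. KO 3 is the only KO library of lane 4, so its lane and the library itself cannot be told apart. The 14 immediate-early and heat shock genes that respond to cell dissociation had KO 1 highest and KO 3 lowest (24620, 19390, 11960 and 14530 CPM in KO 1 to 4). The part of hepatocyte RNA, of dissociation, of the remaining Maf and of the lane in these orders was not tested.

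Stellate cells also express some netrin and matrix genes, and their markers were low throughout. The 10 stellate markers summed to 25.8, 42.9 and 57.98 CPM in controls 1 to 3, and every KO library lay below all of them. The 9 periportal hepatocyte markers summed to 46.9 to 61.3 CPM in controls and 56.7 to 245 CPM in the KO (3 of 9 rose). The 10 pericentral hepatocyte markers, of which Glul gave most reads, summed to 568 to 1073 and 514 to 641 CPM, with 3 of 8 tested falling. The fallers were Glul (767 ± 246 to 481 ± 40.8 CPM), Oat and Axin2. Cyp2e1, Cyp1a2, Cyp2c29 and Gulo had log2 ratios of 0.77, 1.34, 1.17 and 1.07, and Slc1a2 of -0.51, and none of these passed. The median log2 ratio of the list was 0.19, so its sum mostly reflects Glul. Kupffer cell markers summed to 86.3 to 299.7 and 55.2 to 197 CPM (1 of 10 fell), and platelet markers to 16.8 to 20.8 and 29.4 to 44.4 CPM (4 of 5 rose). Their part in the marker values was not tested.

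Genes whose level followed a marker most closely were sought among 9273 genes, by the root mean square difference of log2(CPM + 1) values, centred on the control mean, over the 7 libraries. Nearest to Kit were Col13a1, a transmembrane collagen, and Stab2, a scavenger receptor of sinusoidal cells (0.153 and 0.177). Col13a1 held 651, 722 and 832 CPM in controls and 44.6, 111, 108 and 61.7 CPM in KO 1 to 4 (log2 ratio -3.18, adjusted p = 7.45e-05). Nearest to Adam23 were Slco3a1, an organic anion transporter, and Flt4, the VEGF-C receptor (0.114 and 0.119), with log2 ratios of -1.90 and -1.84. Nearest to Kitl were Susd6 and Zhx3 (0.0667 and 0.0792), and to Ltbp4 the transcription factor gene Foxo1 and the glycosyltransferase gene Galnt10 (0.0544 and 0.0651), none of which passed. Zhx3 was close to the threshold (adjusted p = 0.0527) and passed under 7 alternatives, such as DESeq2 size factors (0.0454). Without KO 3, Susd6, Foxo1 and Galnt10 passed as well (0.0273, 0.00626 and 0.00193). Foxo1 and Galnt10 also passed in lane 5 alone (0.00336 and 0.0035). These genes were chosen for following a marker over the same libraries, so a shared direction or a shared high or low library is no separate result.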

How the data were processed

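The authors deposited 1 table of whole-number read counts, with Ensembl gene IDs as rows and no normalization. According to the submitters' processing notes, FastQC 0.11.5, STAR 2.7.6a and build GRCm38 were used. The counting tool, annotation release and strand setting are unknown (not given in the sources used here), and the labels' protocol names an unstranded and a stranded kit, so reads of overlapping genes are uncertain. Of 52636 IDs, 52403 matched a symbol and 233 did not. Coordinates and merged exon lengths come from GENCODE mouse release 21, on the same build.

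Low genes were removed in R 4.3.3 by the filterByExpr function (edgeR 4.0.16; minimum 10 counts, total 15). Libraries were scaled by TMM, the trimmed mean of M-values (factors 0.877 to 0.921 in controls, 1.04 to 1.14 in KO libraries) and tested with the quasi-likelihood F-test, with no covariate and Benjamini-Hochberg adjustment over 15512 genes at 0.05. SE was taken as log2 ratio over root F, without sign. A count of 3 corresponds to 0.0873 to 0.132 CPM. Chi-square per degree of freedom between libraries of a group was 13.2 to 96.1, so none was the same library sequenced again. It cannot tell separate preparations from 1 animal from libraries of separate animals. Alternatives were DESeq2 1.42.0, limma-voom (limma 3.58.1), other scalings and filters, the lane, the replicate number and single libraries left out. Tests were tried on simulated counts with 200 genes changed. Far more genes passed in the real data, so that trial does not check the scaling or the error rates here.

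The members and gene lists were chosen with earlier results of these data known, so no p over a list is given. The text names all markers, Maf, list genes past the threshold (up to 4 with the smallest p, or all where 5 or fewer moved in a direction), some others by value, and for 4 markers the 2 genes nearest in pattern among genes averaging a log2 CPM of 3 or more.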

Additional observations from a re-analysis of the deposited data

Results flagged for a closer look

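In 2 of the 10 markers 1 KO library stood apart from the other 3, by the gap to its nearest neighbour divided by the range of the 4 KO libraries. The gap was 0.889 of the range in Ltbp4, where KO 3 was high at 3174 CPM against 2162 to 2274 in the others, and 0.9 in Lgals1, where KO 1 was low at 39.8 CPM against 60.8 to 63.1. The 95% critical value for 4 samples is 0.83, and chance passes it in about 1 in 20 groups. Groups of 3, such as the controls, were not tested this way.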

How the results depend on the processing

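Of 153 comparisons of a marker's log2 ratio with an alternative, 146 kept direction and side of the threshold, 3 lost and 4 gained the call, and 0 changed direction. Of 102 comparisons of a count of markers or genes, 99 stayed within 1.5 times. Kit, Cdh13, Thbd, Adam23 and Ntn4 fell under all 17 alternatives, with log2 ratios of -3.47 to -3.01, -2.08 to -1.67, -1.08 to -0.58, -2.04 to -1.62 and -1.70 to -1.17. Library totals gave 6373 rises and 1976 falls over all genes, 76.33% rises against 50.81% with TMM, moved the median log2 ratio of all genes from 0.04 to 0.31, and put Lgals1 at -0.31 (adjusted p = 0.141) and Galnt10, at -0.24 with TMM, at 0.0165. Lane 5 alone put Kitl at -0.46 and Ltbp4 at -0.55, both past the threshold. Leaving out single libraries gave -0.49 to -0.24 for Kitl, 0.33 to 0.47 for Lhx6, -0.45 to -0.20 for Ltbp4, -0.66 to -0.44 for Lgals1, and 0 to 1 rises among pericentral markers. The cause of these shifts was not tested. Control and KO libraries of the same number deviated together weakly or not at all (correlations -0.011, 0.153 and 0.063). Control 1 correlated best with KO 2 (0.081) and control 3 with KO 1 (0.102), neither with its own number. The highest correlation of all was that of control 2 with KO 2 (0.153). With 3 libraries of each group, these values cannot settle whether the numbers are a pairing. With the replicate number as a block over libraries 1 to 3 of each group, which leaves out KO 4, 2448 genes rose and 2607 fell, beside 2720 and 2833 without KO 4, and no marker's call changed. Depth limited Dkk1 among the markers.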
